A study of Rattus norvegicus with 12 samples.

Results

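The brain transcriptome of rats carrying human DNMT3A was compared with that of wild-type rats. The comparison used 6 of the 12 libraries of the study: 3 from the brain of hDNMT3A rats and 3 from the brain of wild-type rats. All animals were adult male Sprague Dawley rats of 15 weeks, and no treatment is named. The other 6 libraries came from testis, 3 per genotype, and serve below only as a second tissue in which to read the brain genes. Genes were compared where the 6 brain libraries averaged 1 FPKM or more, which kept 13827 of 25908 genes (53.4%). FPKM is a fragment count divided by the length of the gene and by the total of its library. At the edge of this filter the lowest mean kept was 1.0005 FPKM and the highest left out was 0.9998, with 210 genes from 1 to 1.1 FPKM and 220 from 0.9 to 1.

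DNMT3A is a de novo DNA methyltransferase, an enzyme that adds methyl groups to cytosines that carried none, mostly where cytosine is followed by guanine. Methylation of a promoter is commonly linked to silencing of its gene. In neurons the enzyme is also known for methylating cytosines outside that context during postnatal life. The sources used here do not give the brain region, the number of rats behind a sample, or the promoter, copy number and founder line of the transgene.

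The genes carry Ensembl rat identifiers only, and 0 of 25908 could be paired with a symbol in the reference table. Lists of pathways and cell type markers, rat Dnmt3a and the human transgene were therefore not measured, and the genotype labels have no check of their own in these values. Genes are described below by the gene length that the steps of their FPKM values imply, and 4 identifiers are given: the 2 higher and the 2 lower genes with the smallest p. No promoter or protein sequence could be matched to a member.

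The 6 libraries held 14004547 to 15700711 reads. Each correlated with every other brain library at 0.955 to 0.98 (log2 values over the genes tested) and with no testis library above 0.398, so each lay with the tissue of its label. Wild-type replicate 2 stood apart. It lay at -43.2 on the first principal component, which held 38.7% of the variance, while the other 5 libraries lay between -6.7 and 18.2. It was also the highest of the 6 libraries in 3255 genes (23.5%). In 203 genes abundant in testis and at most 0.5 FPKM in the median brain library, its level was 1.59% of that in testis, against 0.0511% to 0.33% in the other brain libraries. Results are therefore given with and without that library.

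Most brain transcripts differed little between the genotypes. The log2 difference, transgenic minus wild type, lay between -0.69 and 0.43 for 95% of the genes, and 95.4% of the genes were within 1.5-fold. The median standard deviation between replicates was 0.144 on the same scale. A limma fit of log2(FPKM + 0.5) called 16 of 13827 genes at an adjusted p under 0.05, or 0.116% of those tested. Transgenic brain was higher in 5 (0.0362%) and lower in 11 (0.0796%). All 16 had groups that did not overlap, as did 13.4% of the genes tested (6.15% higher, 7.2% lower). At an unadjusted p under 0.05 there were 1088 genes (7.87%), 474 higher (3.43%) and 614 lower (4.44%). No label ties a sample to an animal of its own, and a p-value then covers no more than the spread among these samples, possibly technical. In tissue RNA, fewer cells of a type and less RNA per cell cannot be told apart.

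**Figure D1:**
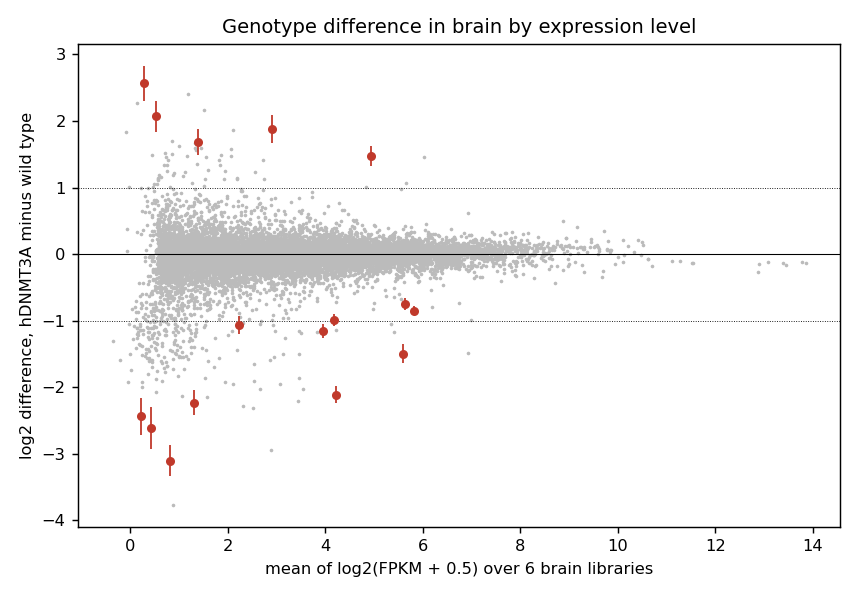
Log2 difference in brain, hDNMT3A minus wild type (vertical axis), against the mean of log2(FPKM + 0.5) over the 6 brain libraries (horizontal axis), with 1 point per gene for 13827 genes. The 16 called genes are red with their standard error, dotted lines mark a 2-fold difference, and 95.4% of all genes lie within 1.5-fold.

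By level of expression, the calls were counted against the 0.116% called over all genes. From 1 to 5 FPKM, 8 of 4123 genes were called (3 higher, 5 lower), and from 5 to 20 FPKM 3 of 5443 (1 higher, 2 lower). Between 20 and 100 FPKM 5 of 3583 were called (1 higher, 4 lower). Of the 678 genes of at least 100 FPKM limma called 0, with 77 at an unadjusted p under 0.05, and voom, limma's fit for read counts, called 0. A count of 0 among 678 genes is near the share over all genes, which was 0.116% called. The 77 genes at an unadjusted p under 0.05 were a larger share than the 7.87% over all genes. In that class the median standard deviation between replicates was 0.107, against 0.237 from 1 to 5 FPKM, where the median gene had 72.7 reads per library. A length under 600 bp was found in 6 of the 16 (37.5%), against 9.01% of the genes tested, and the median length was 1043 bp against 2236 bp.

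Among the called genes, 5 had at most 3 reads summed over the libraries of the genotype in which they were low. Each passed the filter of 1 FPKM only through the genotype in which it was high, as did the genes of 974 bp and 2159 bp. Genes as low in both genotypes were not tested, so a wide separation of these genes was partly selected by the filter. In wild-type brain ENSRNOG00000058047, a gene of 576 bp, stood at 4.28, 5.08 and 4.79 FPKM (37, 41 and 42 reads). In transgenic brain it had 0, 1 and 2 reads, so the groups were far apart. The ratio of wild-type to transgenic reads, scaled to depth, was 41.7 with a 95% counting interval of 13.9 to 205 (adjusted p = 0.013).

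A gene of 3398 bp had 126, 97 and 111 reads in the wild-type brain libraries and 0 in each transgenic one. Its wild-type mean of 2.22 ± 0.225 FPKM (SD, n = 3) was at least 116-fold higher than the floor of 3 reads over the transgenic libraries (adjusted p = 0.039 by limma). The gene of 1443 bp behaved alike, with 85, 37 and 68 reads in wild type and 1, 0 and 2 reads in transgenic brain. Its ratio of reads was 66 (counting interval 22.3 to 323, adjusted p = 0.049). Wild-type replicate 2 was the lowest of the wild-type libraries for both of these genes.

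In the opposite direction, ENSRNOG00000061507, a gene of 282 bp, had 0 reads in each wild-type brain library and 11, 11 and 10 reads in the transgenic ones. That is 2.56, 2.48 and 2.34 FPKM, at least 10.2-fold above the floor (adjusted p = 0.026). A gene of 335 bp had 1 read in each wild-type library and 12, 14 and 12 in the transgenic ones, a ratio of 12.1 (counting interval 3.85 to 61.5, adjusted p = 0.039). Within brain, both transcripts were thus read at low counts and almost only in the transgenic libraries. The counting is not described in the sources used here, so reads of near-identical gene copies may have been split.

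The other 8 lower genes were read in both genotypes, and wild type was 1.69-fold to 7.59-fold higher. The strongest call was ENSRNOG00000052141, of 498 bp, with 45.9, 34.7 and 35.8 FPKM in wild-type and 7.91, 9.85 and 7.94 FPKM in transgenic brain. Wild type was 4.53-fold higher (log2 difference -2.11, SE 0.13, adjusted p = 0.008). The lowest wild-type value was far above the highest transgenic one. This gene alone was called in each fit that left out 1 of the 6 brain libraries.

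A gene of 974 bp stood at 4.04, 5.43 and 5.27 FPKM in wild-type and at 0.741, 0.523 and 0.677 FPKM in transgenic brain, a 7.59-fold difference (adjusted p = 0.015). The gene of 81 bp stood at 69.9, 80.2 and 94.2 FPKM and at 23.5, 33 and 29.3 FPKM (2.85-fold, adjusted p = 0.024). Its level rests on 29 to 116 reads per library, since a gene this short gains much FPKM from each read. Both genes were lower in every transgenic library than in any wild-type one.

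The smallest differences among the lower genes were those of 2 deeply read genes. The gene of 2625 bp, with 1563 to 3105 reads per library, fell from 78.8, 73.4 and 75.6 FPKM to 39.1, 42.1 and 44.7 FPKM. Its wild-type mean was 1.81-fold higher (76 ± 2.71 against 42 ± 2.8 FPKM, SD, n = 3; adjusted p = 0.015 by limma). That of 965 bp fell from 64.3 ± 4.42 to 38.1 ± 3.34 FPKM (SD, n = 3; 1.69-fold, adjusted p = 0.045 by limma). In these 2 genes the groups were separated by several times the spread between replicates.

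The gene of 1974 bp fell from 20.6, 24.9 and 22.5 FPKM to 10.2, 8.94 and 10.6 FPKM (2.29-fold, adjusted p = 0.015). That of 1112 bp fell from 25.5, 25.7 and 23.7 FPKM to 11.3, 12.3 and 13.6 FPKM (2.01-fold, adjusted p = 0.017). The gene of 2091 bp fell from 6.47, 5.5 and 7.07 FPKM to 2.54, 2.89 and 2.84 FPKM (2.3-fold, adjusted p = 0.049). None of the 3 had a transgenic value that reached a wild-type one.

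The other 3 higher genes were read in both genotypes, though those of 467 bp and 2159 bp had 74 and 94 reads over the wild-type libraries. ENSRNOG00000014090, of 2223 bp, rose from 19.8, 16.9 and 17.6 FPKM to 41.5, 51.2 and 62.3 FPKM (2.86-fold; log2 difference 1.47, SE 0.15, adjusted p = 0.024). The transgenic values varied more among themselves than the wild-type ones, and each was above all of them. The gene of 467 bp rose from 3.57, 2.29 and 4.79 FPKM to 13.9, 14 and 13.8 FPKM (3.93-fold, adjusted p = 0.039). Here it was the wild-type libraries that varied, with 15 to 34 reads, while the transgenic ones had 98 to 103. The gene of 2159 bp rose from 1.14, 1.16 and 0.67 FPKM to 4.62, 3.84 and 4.31 FPKM (4.3-fold, adjusted p = 0.045).

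**Figure D2:**
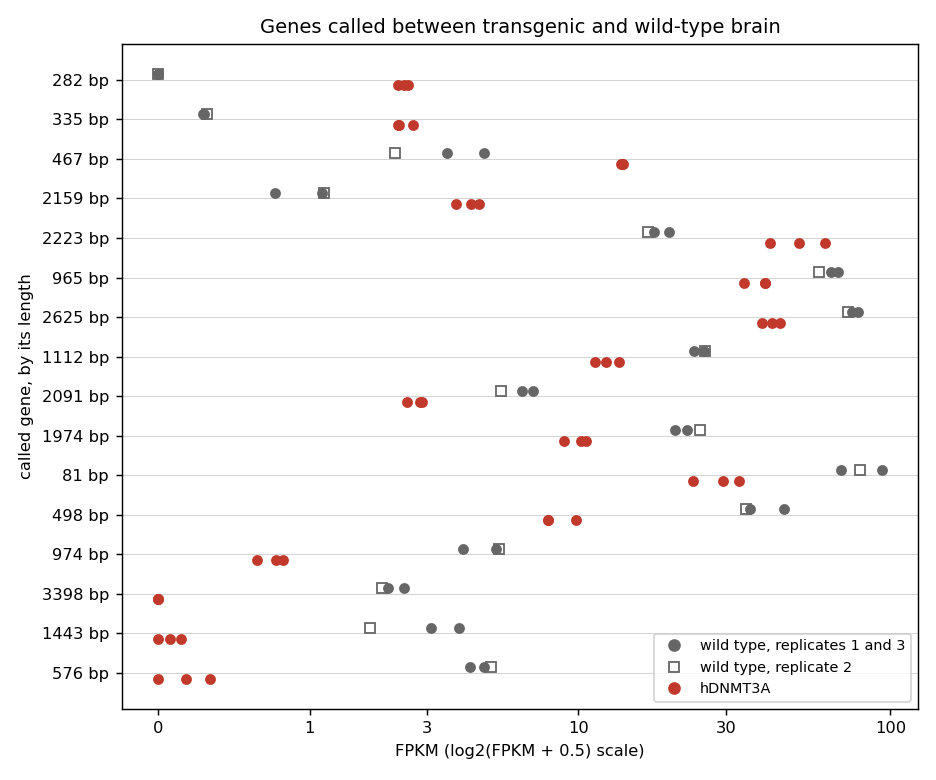
FPKM of the 16 called genes in each brain library, on a log2(FPKM + 0.5) axis, with genes named by their length and ordered by their log2 difference. Grey points are wild-type replicates 1 and 3, open squares wild-type replicate 2 and red points the 3 hDNMT3A libraries. In each gene the red and grey values do not overlap, and the open square is at the low end of the wild-type values in 8 genes and at the high end in 6.

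Wild-type replicate 2 was the highest wild-type library in 6 of the 16 genes, the lowest in 8 and in neither place in 2. Without it the log2 difference kept its sign in all 16 and moved by at most 0.25. The number of calls nevertheless fell from 16 to 2, and both of these, the genes of 498 bp and 467 bp, were among the 16. Of the others, 13 had adjusted p up to 0.0703, at an unadjusted p of at most 8.24e-05, and the gene of 3398 bp fell under the filter on the mean. None of the 16 was more than 10 times higher in testis than in brain. Without wild-type replicate 1 there were 8 calls (4 of them among the 16) and without replicate 3 there were 4 (2 among the 16). Without transgenic replicate 1 or 2 there were 8 (5 among the 16 in each case), and without replicate 3 there were 5 (4 among the 16). Of the 16 genes, 7 were called in none of the fits that left out 1 library, the gene of 2159 bp among them.

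With limma's voom on the recovered reads 16 genes were called, 12 of them among the 16. The 4 not called were those of 81 bp, 282 bp, 335 bp and 1443 bp (adjusted p = 0.0984 to 0.174). In the genotype where they were low they had 107, 0, 3 and 3 reads over its libraries. The 12 had adjusted p of 0.00678 to 0.0398 in that fit.

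Another 11 genes had an adjusted p from 0.0775 to 0.0966 and were not called, 5 of them higher and 6 lower in transgenic brain. Their groups did not overlap either. The gene of 2196 bp, the most deeply read of them, stood at 98.1, 88.1 and 103 FPKM in wild-type and at 48.3, 61.3 and 57.6 FPKM in transgenic brain. A gene of 3082 bp stood at 7.18, 19.1 and 13.3 FPKM and at 1.62, 2.25 and 2.37 FPKM. In the latter the wild-type libraries differed among themselves by more than the transgenic ones did. On the higher side, the gene of 2349 bp stood at 9.31, 8.97 and 8.96 FPKM in wild-type and at 14.6, 19.6 and 19.6 FPKM in transgenic brain. These examples were chosen after their values were seen.

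Large differences without a call were more common than calls. A difference of at least 2-fold was fitted for 254 genes (1.84%), 60 higher (0.434%) and 194 lower (1.4%). The excess of lower genes moved with wild-type replicate 2. Without that library 97 genes were at least 2-fold higher and 94 at least 2-fold lower, so that the lower share went from 76.4% to 49.2%. Genes over 10 times higher in testis than in brain held 116 of the 194 lower genes with all libraries and 9 of the 94 without it. In this class of 805 genes the library was the highest of the 6 in 80.2%, against 13.7% of the 2604 genes over 10 times higher in brain and 21.6% of the 10418 others. The filter on the mean included that library, so a gene could pass it because that library was high. These shares thus depend partly on the filter, and the values without the library keep the same 13827 genes. Filtering without it kept 13645.

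**Figure D3:**
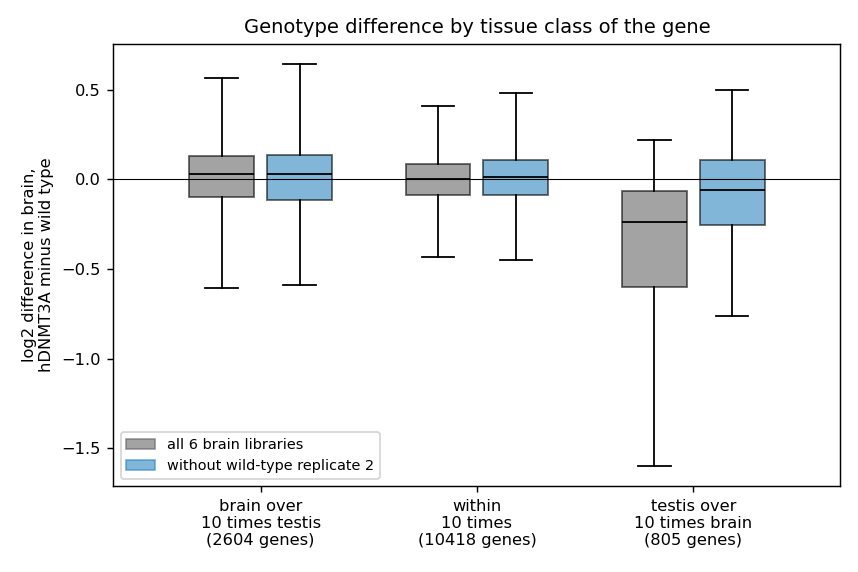
Log2 difference in brain, hDNMT3A minus wild type, for genes grouped by the ratio of their mean levels in brain and testis, with all 6 brain libraries (grey) and without wild-type replicate 2 (blue). Boxes show the quartiles and median, and whiskers the central 95% of the genes. In the testis-high class the median moves from -0.24 to -0.056, while in the other classes it stays between 0.003 and 0.028. Both boxes of a class hold the same genes, kept by their mean over all 6 brain libraries.

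The median log2 difference of the testis-high class was -0.24 with all libraries and -0.056 without wild-type replicate 2. In the brain-high class it was 0.028 in each case, and in the remaining genes 0.003 and 0.012. As an example chosen after its values were seen, a gene of 396 bp with a wild-type testis mean of 10800 FPKM read 42.2, 193 and 2.16 FPKM in wild-type brain. It read 3.98, 19.9 and 21.6 FPKM in transgenic brain, and its log2 difference of -1.15 had an adjusted p of 0.93. The groups overlapped, and 1 library held the high value. In the testis-high class limma called 0 of 805 genes (57 at an unadjusted p under 0.05, and 0 called by voom). Over all genes 0.116% were called and 7.87% were under that unadjusted p, so a count of 0 among 805 does not set the class apart. It called 4 of 2604 in the brain-high class (2 higher, 2 lower) and 12 of 10418 in the rest (3 higher, 9 lower).

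In abundant genes a few large differences did not pass the test. Of the genes of at least 20 FPKM, 10 were at least 2-fold apart and not called (3 higher, 7 lower, adjusted p = 0.16 to 0.93), and 4 of these had groups that did not overlap. The highest expressed was a gene of 64 bp at 130, 276 and 238 FPKM in wild-type and 66.7, 79.6 and 73.1 FPKM in transgenic brain. It had no overlap between groups, and its wild-type values spread widely. A gene of 798 bp read 35.5, 17.6 and 91.9 FPKM in wild-type and 102, 130 and 94.1 FPKM in transgenic brain (log2 difference 1.46, SE 0.51, adjusted p = 0.54). A gene of 519 bp was low in the same wild-type libraries, with 24, 23.4 and 71.8 FPKM against 61.3, 94.9 and 64.8 FPKM. In both, wild-type replicate 3 lay with the transgenic libraries or close to them.

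The testis libraries offered a second reading of the brain calls in samples that the calls did not use. In testis 10 of the 16 genes averaged 1 FPKM or more. The direction was the same in 8 of these 10, and the share of all genes with the same direction was not counted. Limma called 4 of the 10 in testis, where 0.403% of the 10917 genes tested in both tissues were called. In 5 of the 10 the testis groups did not overlap, each in the direction seen in brain. Among all 10917 genes, non-overlap was found in 10.4% for higher and in 6.77% for lower testis values in transgenic rats. Whether a rat gave both tissues is not given in the sources used here. The sample codes of brain and testis match except for the tissue letter, so a shared rat is possible. The interaction fit counted all 12 libraries as separate. It contains the brain difference by which these genes were called, so more interactions among them than among all genes were built in by the selection.

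Called in both tissues were the genes of 498 bp, 2223 bp, 335 bp and 3398 bp. The last 2 passed the filter in testis only through the genotype in which they were high. Wild-type and transgenic testis averaged 0.255 and 9.12 FPKM for the 335 bp gene, and 3.21 and 0 FPKM for that of 3398 bp. Their separation in testis was thus partly selected by the filter, as in brain. The gene of 1974 bp had groups that did not overlap in testis, 6.26, 6.71 and 7.71 FPKM against 3.56, 3.31 and 5.28 FPKM, but was not called there (log2 difference -0.72, SE 0.18, adjusted p = 0.17). The 2625 bp gene stood at 10.2 FPKM in each wild-type testis library and at 9.55, 9.84 and 11.9 FPKM in transgenic testis, so that the groups overlapped. Its difference was 0.03 in testis (SE 0.10) against -0.85 in brain (SE 0.07), and the test of that interaction passed (adjusted p = 0.012), as it did for 0.421% of the genes tested in both tissues. The 965 bp gene had a like pattern, 0.05 in testis against -0.75 in brain, with an interaction that did not pass (adjusted p = 0.099).

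The clearest contrast between the tissues was that of ENSRNOG00000058047, of 576 bp. It was nearly unread in transgenic brain but stood at 2.07, 1.64 and 0.862 FPKM in transgenic testis, against 2.05, 2.26 and 1.85 FPKM in wild-type testis. The testis difference was -0.38 (SE 0.25, adjusted p = 0.65), the brain difference -3.10 (SE 0.23), and the interaction -2.72 (SE 0.32, adjusted p = 0.008). The testis groups overlapped and the brain groups did not. For the genes of 1112 bp and 2091 bp the testis differences were -0.53 (adjusted p = 0.56) and -0.42 (adjusted p = 0.45), and neither interaction passed (adjusted p = 0.80 and 0.44).

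**Figure D4:**
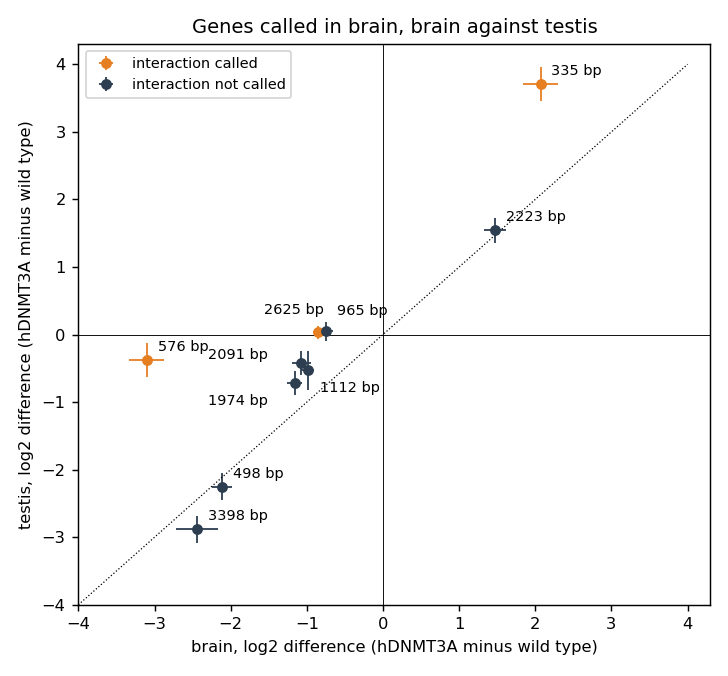
Log2 difference, hDNMT3A minus wild type, across (brain) and up (testis) for the 10 called genes that averaged 1 FPKM or more in testis, named by length, with bars of 1 standard error. The dotted line marks equal differences. The genes of 498 bp and 2223 bp lie nearest to it. The differences of the 3398 bp and 335 bp genes, and that of the 576 bp gene in brain, depend on the pseudocount. The 3 genes in orange, of 576 bp, 2625 bp and 335 bp, passed the test of the interaction.

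The remaining 6 called genes were under 1 FPKM in testis and were not tested there. Those of 81 bp, 467 bp, 1443 bp and 2159 bp were more than 10 times higher in brain than in testis. The 2159 bp gene, for example, stood at 0.132 ± 0.048 FPKM in wild-type and 0.0902 ± 0.0518 FPKM in transgenic testis (SD, n = 3). The 467 bp gene read 0.422, 0.735 and 0.134 FPKM in wild-type and 0.994, 1.01 and 1.59 FPKM in transgenic testis. In the latter gene the testis groups were ordered as in brain and did not overlap. Of the genes tested in both tissues, to which this low gene did not belong, 10.4% were higher in transgenic testis without overlap.

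A wider set was read in testis in the same way: genes at least 2-fold apart in brain with groups that did not overlap, whether called or not. There were 26 such higher genes (0.188%) and 62 lower ones (0.448%). Of the higher genes 11 could be tested in testis, and 3 of these (27.3%) were higher there without overlap, against 10.4% of all genes. Of the lower genes 36 could be tested, and 12 (33.3%) were lower in testis without overlap, against 6.77%. In the opposite direction testis groups were without overlap for 1 and 2 genes. Of the called genes, 5 higher and 8 lower ones are in these sets. The 3 higher genes without overlap in testis include the called genes of 2223 bp and 335 bp. The 12 lower ones include those of 498 bp, 3398 bp and 1974 bp, so the wider set partly repeats the reading above.

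Without wild-type brain replicate 2 the set counted 52 higher and 68 lower genes. In testis 3 of 20 higher genes (15%) and 10 of 33 lower genes (30.3%) were then without overlap in the same direction. The higher share came closer to that of all genes, and the lower share stayed above it. Fewer of the lower genes, 6 in place of 17, belonged to the testis-high class. Short genes made up much of both sets, 34 of 62 lower and 13 of 26 higher genes being under 600 bp with all libraries.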

How the data were processed

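FPKM values of 25908 genes in 12 libraries were used as the authors deposited them. Total RNA was extracted with Trizol and made into TruSeq libraries, per the labels' protocols. The submitters' processing notes name Bowtie 1.0.1 and the build Rnor_6.0. The sources used here do not give the annotation, the counting or its use of strand, which leaves overlapping genes and gene copies uncertain.

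Reads and gene lengths were worked back from the FPKM steps, whole within 0.002 reads in 100% of genes (0% of 2000 genes after a random shift of about 1%). Lengths are the smallest that give whole reads. Counting intervals (exact, 95%) and the 3-read floor cover counting error only. The chi-square between replicates was 7.42 to 13.54 per gene, and each counts as a sample.

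Log2(FPKM + 0.5) was fitted with limma 3.58.1 (R 4.3.3, intensity trend), a scale that understates the change of low genes. Genes averaging 1 FPKM or more were tested, two-sided, with Benjamini-Hochberg adjustment over all of them. Testis was fitted alone in the same way, and the interaction over 12 libraries. Genes were named by smallest p, at most 2 higher and 2 lower, because identifiers were not paired with symbols. The reference table (47357 RefSeq genes) matched 0. The members, lists and alternatives were chosen with earlier results of these data known. Python 3.11.15, pandas 2.3.3, scipy 1.17.1 and matplotlib 3.10.9 were used for the rest.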

Additional observations from a re-analysis of the deposited data

Results flagged for a closer look

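A difference of the genotype effect between brain and testis drew attention to 3 of the genes called in brain. Of the 10917 genes tested, 0.421% had such an interaction by limma. That share is no fair measure for genes chosen by their brain difference, which is part of the interaction. The genes of 576 bp and 335 bp also passed the filter in brain only through the genotype in which they were high. The gene of 576 bp had an interaction of -2.72 on the log2 scale (brain minus testis, adjusted p = 0.008), with -3.10 in brain and -0.38 in testis. For the gene of 2625 bp it was -0.88 (adjusted p = 0.012), with -0.85 in brain and 0.03 in testis. The gene of 335 bp was higher in transgenic rats in each tissue, with 2.07 in brain and 3.71 in testis and an interaction of -1.64 (adjusted p = 0.038). In wild-type brain this gene rests on 3 reads. With a pseudocount of 0.1 the interaction was called for 2 of the genes called in brain, and with a pseudocount of 1 for 3. Leaving out 1 of the 12 libraries gave 2 or 3.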

How the results depend on the processing

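Against 16 calls (5 higher, 11 lower), limma called 7 with a pseudocount of 0.1 (1 higher, 6 lower), 8 with a filter at 5 FPKM (2 and 6), 27 at an adjusted p under 0.1 (10 and 17) and 57 with all 12 libraries in 1 fit (24 and 33). The higher genes numbered 3 with quantile normalization and 3 without an intensity trend. Leaving out 1 library gave 2 to 8 calls, 0 to 2 higher and 1 to 8 lower. With the replicate number as a block limma made 0 calls, 0 higher and 0 lower, with 742 genes at an unadjusted p under 0.05. Deviations of same-numbered libraries from their group means correlated at -0.04, -0.17 and -0.22 over the genes tested. Those of differently numbered libraries correlated at -0.03 to 0.22. With 3 libraries per group these values cannot decide whether a number stands for a shared batch, so the fit with the block stays a limit on the calls. Every one of the 16 genes kept its sign in each alternative that tested it. Chosen after seeing the data were the counts of genes without overlap, of genes without a read, and the alternatives for testis and the interaction. Without wild-type replicate 2, groups did not overlap for 1545 higher and 1563 lower genes in place of 851 and 996, since fewer libraries have to be separated, and the 2-fold set had 52 higher genes in place of 26. Genes without a read in transgenic brain numbered 15 without that library and 3 at a minimum of 5 reads, against 6, and those without a read in wild-type brain 9 without it, against 3. The gene lists were not run, for want of symbols. Genes of few reads limit the precision, since 1 read moves them most.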

Other observations

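Below the filter, reads were compared for genes with none in 1 genotype and at least 3 in each brain library of the other. Among 22487 genes with a read in any brain library there were 6 without a read in transgenic brain and 3 without a read in wild-type brain. Of these 9, 3 passed the filter. They were picked for having no read in 1 genotype, so their separation is not a result. A gene of 837 bp had 17, 18 and 19 reads in wild-type and 0 in each transgenic brain library. In testis it had 2, 0 and 1 reads in wild-type and 0 in each transgenic library. A gene of 2790 bp had 6, 10 and 8 reads in wild-type and 0 in each transgenic brain library, but 3, 1 and 0 in wild-type and 2, 4 and 2 in transgenic testis. In the opposite direction, a gene of 3821 bp had 0 reads in each wild-type and 6, 5 and 6 in the transgenic brain libraries, while testis held 176 to 197 reads in wild-type and 143 to 169 in transgenic rats. A gene of 1379 bp had 0 reads in each wild-type and 3, 5 and 3 in the transgenic brain libraries, but 26, 18 and 33 in wild-type and 11, 10 and 5 in transgenic testis. Of the 9 genes, 3 had at least 100 reads in every testis library, those of 3821 bp, 450 bp and 640 bp. The gene of 450 bp had 3, 8 and 4 reads in wild-type brain, and that of 640 bp 3, 20 and 4. Both had 0 reads in each transgenic brain library. In both, the highest count was in wild-type replicate 2, the library with the highest testis-like level.

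The 10 most abundant brain genes, from 2490 to 14900 FPKM on average, held 9.01%, 8.53% and 9.59% of the reads in wild-type and 8.66%, 8.13% and 7.78% in transgenic brain. The groups overlapped (exact permutation test, two-sided, p = 0.2, where 0.1 is the smallest this design allows). All 10 had lower fitted values in transgenic brain, by -0.26 to -0.10 on the log2 scale, where the median over all genes tested was 0.0. The 10 were read in the same libraries and do not count as 10 separate observations. Of the 10, limma called 0, with 1 at an unadjusted p under 0.05, and voom called 0.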
